A study of Arabidopsis thaliana with 18 samples.

Results

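The transcripts described here were higher in Arabidopsis cells given Rose Bengal (RB) than in their untreated control, while the same transcripts stayed less than 0.5 (log2) above that control in cells given hydrogen peroxide (H2O2). They were chosen by their measured values. A gene was taken when the mean log2 signal of the RB arrays was at or over 1 above the mean of the control for RB and H2O2, every RB array lay above every control array, and the H2O2 mean was under 0.5 above the control mean. From the 92 named nuclear genes that met these limits, 20 were left out by name. They were 9 of the 27 marker transcripts tabulated by the study, 3 heat shock proteins, 3 genes with ERF or WRKY symbols and 5 of 8 further named genes. This left 72 of 14119 named nuclear genes. Since RB, H2O2 and their control chose the members, their differences are a description and carry no test. The arrays of the 2 other dyes, Methyl Violet (MV) and Indigo Carmine (IC), had no part in the choice and are tested.

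The study exposed light-grown Arabidopsis thaliana cell suspension cultures (ACSC, Columbia background per the study's methods) to compounds that raise reactive oxygen species, and read total RNA on Affymetrix ATH1 arrays. The groups of 3 arrays each were RB at 0.5 μM, H2O2 at 500 μM and the untreated control for RB and H2O2, then the dye labelled Methyl Violet at 0.5 μM (MV, named Methylene Violet in the study's text), Indigo Carmine at 0.5 μM (IC) and the untreated control for MV and IC. The labels name a light treatment of 30 min and a dark one of 1 h but do not assign either to an array. The study's text describes 30 min of illumination for the array cells. Such cultures are undifferentiated cells kept in liquid medium and stand for neither a leaf nor a whole plant. Signals are log2 RMA values, so a difference of 1 is a doubling of the signal. Array medians lay between 4.91 and 5.14. Only 1 of the listed nuclear photosynthesis transcripts had a named probe set, PSBW of photosystem II, at group means between 10.2 and 10.6 in all 6 groups, so the light-grown state of the cells could not be checked further.

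Singlet oxygen forms in chloroplasts when excited chlorophyll passes energy to oxygen, and RB is a dye that makes it in the light. MV and IC are used as photosensitizers as well. H2O2 is a longer-lived oxidant that crosses membranes and is made in chloroplasts, peroxisomes and at the cell surface. In seedlings, singlet oxygen and H2O2 are known to change partly different sets of nuclear transcripts.

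Over all 22746 probe sets, 1.24% were at or over 1 in RB without overlap with the control, and 0.418% also stayed under 0.5 in H2O2. The members differed from the control by 1.02 to 3.41 in RB, with a median of 1.40, which is a 2.64-fold higher signal. In bulk RNA of this kind, more cells with a transcript and more of it per cell cannot be told apart. Of the 72, 42 lay at or under 1.5, 14 lay over 2 and 1 lay over 3. The difference between H2O2 and control ran from -0.84 to 0.49, with a median of 0.23, against a median of -0.02 over all probe sets. It was below 0 for 14 members, against 53.5% of all probe sets, and at or over 0.25 for 32. The ranges of the H2O2 and control arrays overlapped for 65 members. For 6 members (HSFA2, AT5G65300, MYB108, AT2G46735, AT1G64460 and AT1G07520) every H2O2 array lay above every control array. Neither count was set beside its share of all probe sets. The H2O2 mean was at or above the control mean for 58 of 72 members. "Raised by RB only" is therefore a statement about the limit of 0.5 and not about an absence of any difference in H2O2. The H2O2 arrays and the shared control took part in the choice, so these counts describe the chosen genes and are no evidence of an H2O2 effect.

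**Figure D1:**
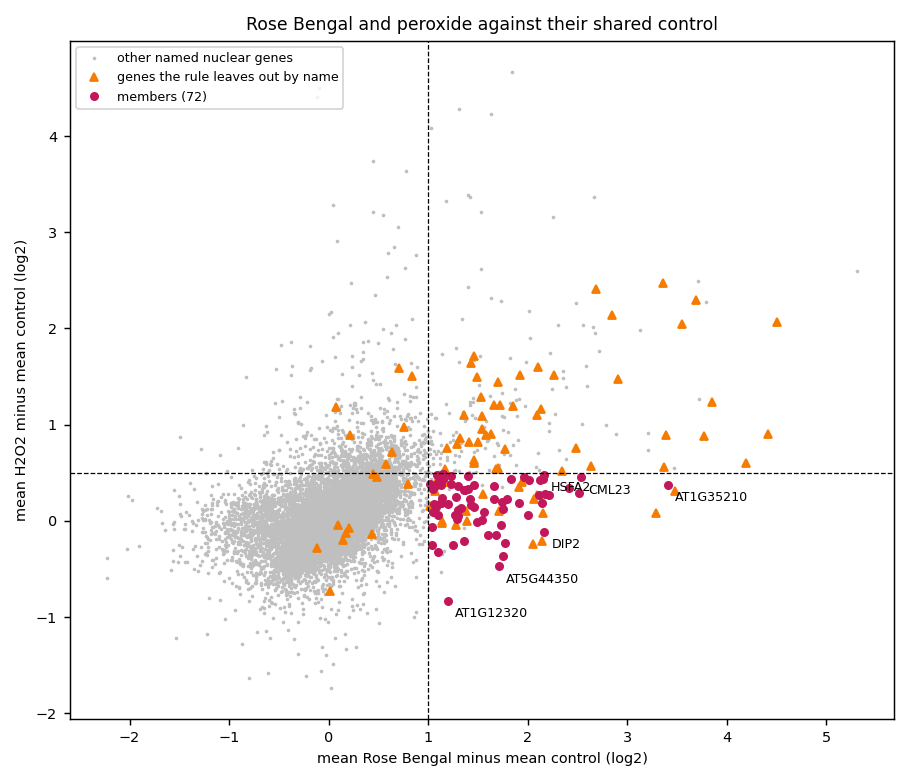
Each point is a named nuclear gene, with the mean of the RB arrays minus the control mean on the x axis and the mean of the H2O2 arrays minus the same control mean on the y axis (both log2). The dashed lines are the limits of 1 and 0.5, filled circles are the 72 members and triangles are genes left out by name, and the members extend to 3.41 on the x axis and down to -0.84 on the y axis.

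The limits cut through a continuous spread. Just inside the limit of 1 in RB lay AT1G07520 at 1.02, AT1G72240 at 1.04 and AT1G49900 at 1.04, and just outside it lay AT1G03730 at 0.99, AT5G66650 at 0.99 and AT1G06210 at 0.99. Just inside the limit of 0.5 in H2O2 were A/N-InvC at 0.49, AT2G46735 at 0.49 and HSFA2 at 0.48, and just outside it were AT5G66670 at 0.50, AT2G14290 at 0.51 and the heat shock factor gene AT-HSFB2B at 0.51. The narrowest gap between the lowest RB array and the highest control array was 0.01, for AT5G19240. The widest was 2.35.

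The largest difference belonged to AT1G35210, a gene of unknown function, with 8.31, 6.70 and 7.39 in the RB arrays, 5.68, 3.38 and 4.26 in the H2O2 arrays and 4.35, 3.80 and 4.03 in the control arrays. Its RB mean was 10.6-fold the control mean. The 3 RB arrays stood above all the others, while the first H2O2 array was also above the control and the second was below it. AT5G65300, likewise of unknown function, had 8.24, 8.18 and 7.83 in RB, 6.18, 6.08 and 6.12 in H2O2 and 5.75, 6.06 and 6.02 in control arrays. Here the H2O2 arrays lay just above the control arrays and far below the RB arrays. DIP2 had 7.18, 6.72 and 6.80 in RB, 4.48, 4.90 and 4.48 in H2O2 and 5.16, 4.78 and 4.26 in control arrays, with H2O2 and control fully mixed.

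**Figure D2:**
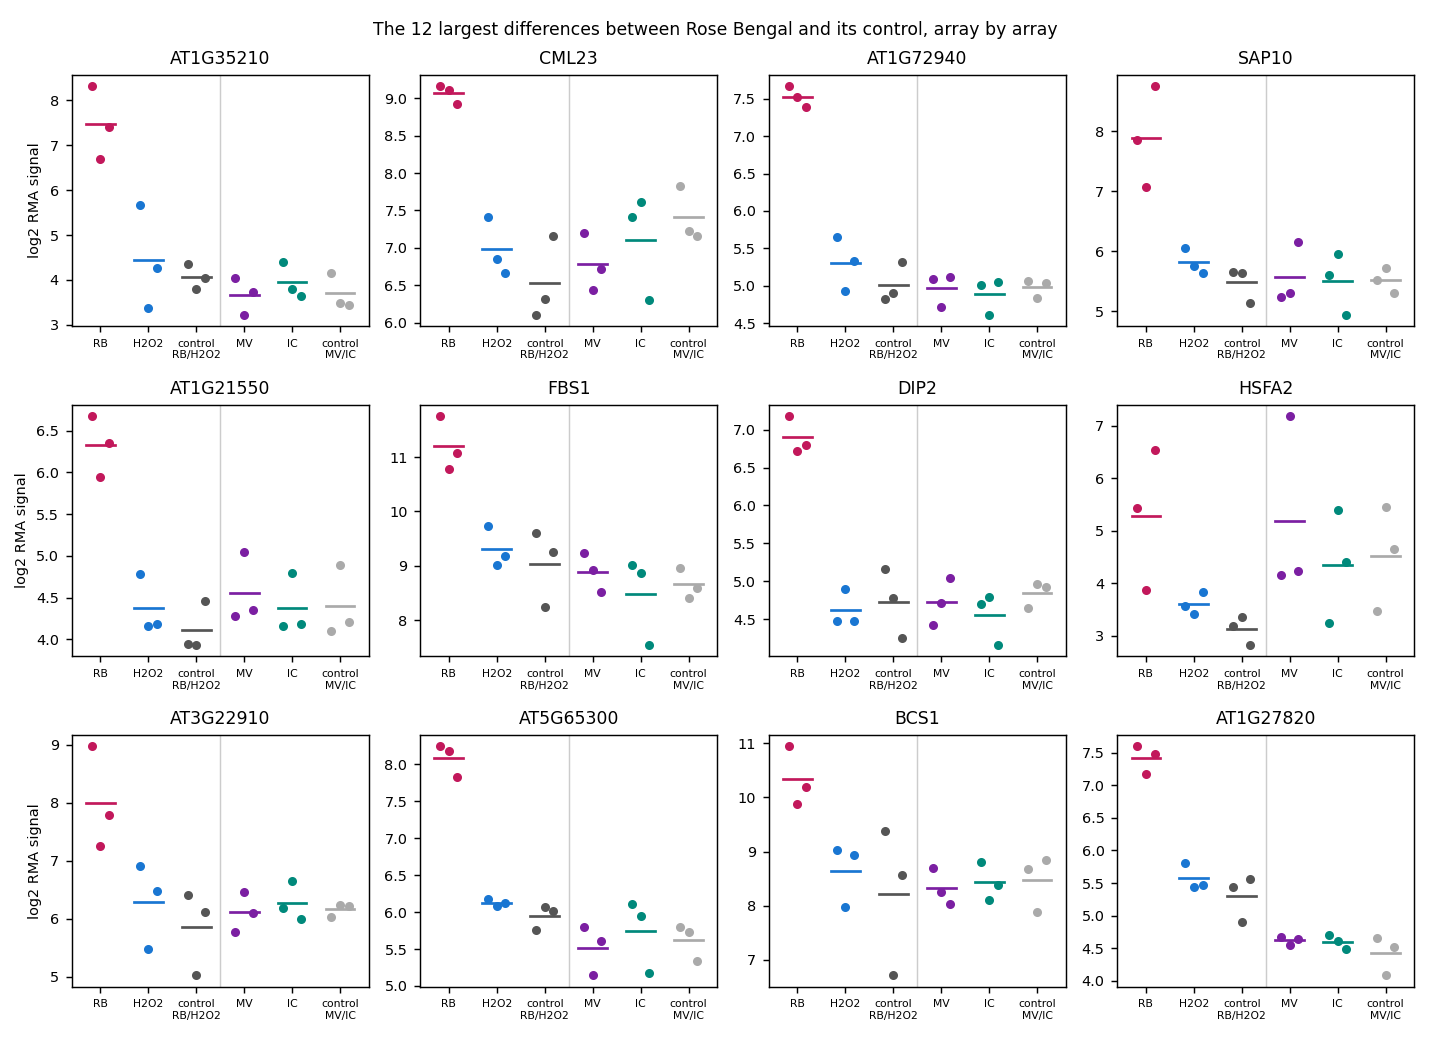
Log2 RMA signal (y axis, with its own scale in each panel and not starting at 0) of the 12 members with the largest RB difference in each of the 18 arrays, with 1 point per array and a bar at the mean of 3 arrays. The RB arrays stand above the H2O2 arrays and their own control arrays in all 12 panels, while in the HSFA2 panel an MV array, at 7.18, exceeds every RB array and MV/IC control arrays, at 5.45 and 4.65, exceed the lowest RB array.

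Calcium sensors and transporters held some of the highest members. CML23, a calmodulin-like protein that binds calcium, had 9.16, 9.11 and 8.92 in RB, 7.41, 6.85 and 6.67 in H2O2 and 6.11, 6.32 and 7.15 in control arrays. The RB arrays were tightly grouped, and the H2O2 arrays overlapped the highest control array. AT1G21550, another calmodulin-like protein, had 6.67, 5.95 and 6.35 in RB, 4.78, 4.16 and 4.19 in H2O2 and 3.94, 3.93 and 4.46 in control arrays. AT3G22910, a calcium-transporting ATPase of the autoinhibited plasma membrane type, had 8.97, 7.25 and 7.79 in RB, 6.90, 5.48 and 6.47 in H2O2 and 6.42, 5.03 and 6.11 in control arrays. For this pump the second array was the lowest in RB, in H2O2 and in the control. AT5G39670, a calmodulin-like protein, was 1.36 higher in RB and -0.20 in H2O2, and EDA39, a calmodulin-binding protein, was 1.06 higher in RB and 0.36 in H2O2. A listed gene is called measured here when it has a named probe set. Of 16 measured calmodulin-like genes on the list for this family, 7 were at or over 1 in RB and 2 in H2O2. The shares of all probe sets were 1.44% and 1.16%. List counts below also compare to these, except where all genes of a list were named through the study's changed loci. Members, chosen for their RB values, are 3 of the 16. The lists were drawn up with earlier results of these data known, so their counts are a description and no test. The 5 measured autoinhibited calcium ATPases were all named only because the study lists them as changed. Among them only AT3G22910 was at or over 1 in RB, while ACA8 was -1.16 and their median was -0.84. The calcium-dependent protein kinases CPK4 and CPK6, named here only because the study lists them as changed, stood at 1.02 and 1.25 in RB and at 0.87 and 0.84 in H2O2 and are no members.

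Transcription factors made up 12 members, with RB differences from 1.02 to 2.16 and a median H2O2 difference of 0.20. MYB51, which drives indole glucosinolate synthesis, had 6.32, 5.82 and 5.66 in RB, 4.65, 3.60 and 3.71 in H2O2 and 4.70, 3.44 and 3.65 in control arrays, and the first H2O2 and control arrays were raised together. MYB77, known from auxin-dependent lateral root growth, had 8.70, 8.55 and 8.85 in RB, 7.47, 6.83 and 7.27 in H2O2 and 6.82, 6.36 and 7.01 in control arrays. MYB108, linked to wounding and the response to Botrytis, had 4.77, 4.55 and 4.13 in RB, 3.80, 3.58 and 3.28 in H2O2 and 3.10, 3.09 and 3.05 in control arrays. This was a close control with H2O2 wholly above it, but at dim signals, where the lowest value of all arrays was 2.43. RAX2, a MYB factor of axillary meristems, was 1.06 higher in RB. By contrast MYB30, a MYB of the defence-linked cell death response, was 0.26 in RB and 1.20 in H2O2, and MYB2 was 1.88 in RB and 1.37 in H2O2. Of the 16 genes on the MYB list 6 were measured, all named only because the study lists them as changed. Of these 6, 3 are members and 1 had the larger difference in H2O2, so the share of members among all MYB genes is not known.

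TEM1, a RAV-type repressor of flowering, had 7.32, 7.69 and 7.55 in RB, 5.96, 5.56 and 5.86 in H2O2 and 5.54, 5.79 and 5.51 in control arrays, whereas its relative RAV2 was 1.90 in RB and 0.84 in H2O2 and EDF3 was 0.83 in RB and 2.10 in H2O2. The 3 RAV genes measured were all named only because the study lists them as changed. Among them TEM1 alone stayed under 0.5 in H2O2 and EDF3 alone was higher in H2O2 than in RB. STZ, a C2H2 zinc finger repressor of the stress response, had 11.73, 11.76 and 11.78 in RB, 10.70, 10.14 and 10.12 in H2O2 and 10.41, 10.59 and 9.28 in control arrays. Its RB arrays differed by only 0.05, the narrowest range of all members, while the control spanned 1.31. The C2H2 factor AT3G46070 was 1.56 higher in RB and 0.09 in H2O2. Within the C2H2 list, 6 of 9 measured genes were at or over 1 in RB and 2 in H2O2, against 1.44% and 1.16% of all probe sets. Those in RB include the members STZ and AT3G46070. They also include ZAT6 at 3.21 in RB and 0.74 in H2O2 and RHL41 at 2.72 in RB and 1.76 in H2O2. Only 4 of the 9 are named by the platform, and 2 of these were at or over 1 in RB. CRF7 and AT1G71450, both with an AP2 DNA-binding domain, were 1.25 and 1.36 higher in RB.

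HSFA2, the factor that maintains heat shock gene expression, had 5.43, 3.88 and 6.54 in RB, 3.56, 3.42 and 3.83 in H2O2 and 3.18, 3.36 and 2.83 in control arrays. The RB arrays spanned 2.67, the widest range of any member, and the second RB array lay close to the control. Of 20 listed heat shock factors 5 were measured, all named only because the study lists them as changed. Of these 5, 3 were at or over 1 in RB and 1 in H2O2, counts that this naming selects for change. The 24 named heat shock proteins that the choice leaves out had median differences from the control of 1.45, 1.31 and 2.29 in the RB arrays and 0.34, 0.97 and 1.33 in the H2O2 arrays.

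Zinc finger and RNA-related proteins gave 3 members. SAP10, a stress-associated A20/AN1 zinc finger protein, had 7.86, 7.07 and 8.76 in RB, 6.05, 5.76 and 5.64 in H2O2 and 5.65, 5.64 and 5.14 in control arrays. CZF1, a tandem CCCH zinc finger protein, had 10.44, 10.24 and 10.20 in RB, 8.92, 9.11 and 8.96 in H2O2 and 9.08, 8.63 and 8.20 in control arrays. AT1G27820, a CAF1-type deadenylase that shortens the poly(A) tails of messenger RNA, had 7.60, 7.17 and 7.48 in RB, 5.81, 5.44 and 5.47 in H2O2 and 5.44, 4.90 and 5.57 in control arrays. It is the 1 member read by a probe set of the type that may also bind other transcripts, and its relatives CAF1a (2.49 in RB, 0.76 in H2O2) and CAF1b (1.88 in RB, 1.25 in H2O2) were high as well, so its own part in the signal is uncertain. SZF1, the closest relative of CZF1, was 1.60 in RB and 0.84 in H2O2. Of 8 measured A20/AN1 genes, 3 were at or over 1 in RB and 1 in H2O2. The platform names 6 of the 8, and 1 of these was at or over 1 in RB.

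Ubiquitin ligases and their adaptors, which mark proteins for breakdown, made up 8 members. FBS1, a stress-inducible F-box protein, had 11.75, 10.78 and 11.08 in RB, 9.74, 9.01 and 9.18 in H2O2 and 9.60, 8.24 and 9.26 in control arrays. RDUF2, a RING ligase of abscisic acid responses, had 9.95, 9.78 and 9.93 in RB, 8.70, 8.42 and 8.36 in H2O2 and 7.97, 8.53 and 7.68 in control arrays. Its partner RDUF1, left out as a tabulated marker, stood at 2.14 in RB and 1.16 in H2O2. AT1G20823, a RING protein, had 8.50, 8.57 and 8.51 in RB, 7.31, 6.74 and 6.32 in H2O2 and 7.26, 7.11 and 6.42 in control arrays, with RB arrays within 0.06 of each other. PUB22, a U-box ligase that restrains immune signalling, had 7.78, 7.22 and 6.92 in RB, 7.32, 5.81 and 5.63 in H2O2 and 6.49, 5.84 and 5.46 in control arrays. The first H2O2 array of PUB22 exceeded its second RB array, so RB and H2O2 overlapped here. Its close relatives PUB23 (1.05 in RB, 0.65 in H2O2) and PUB24 (2.08 in RB, 0.56 in H2O2) missed the limit in H2O2. BT5, AT3G28620, AT5G60820 and AT1G80960 were 1.42, 1.30, 1.13 and 1.09 higher in RB.

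TIR-domain and resistance genes, from the class of intracellular plant immune receptors, gave 3 members with a median H2O2 difference of 0.01. AT1G72940 had 7.67, 7.52 and 7.39 in RB, 5.65, 4.92 and 5.33 in H2O2 and 4.82, 4.91 and 5.31 in control arrays, and its lowest RB array was 1.74 above the highest of the 15 others, the widest such gap of any member. AT4G11170 had 6.52, 4.34 and 4.81 in RB, 3.90, 3.64 and 3.54 in H2O2 and 3.81, 3.43 and 3.80 in control arrays. The first RB array was far above the other two, and without it the RB difference was 0.892 in place of 1.54. AT5G40920, annotated as a pseudogene of this class, was 1.78 higher in RB and -0.23 in H2O2. Over the list, 5 of 8 measured TIR genes, 2 of them members, were at or over 1 in RB and 0 in H2O2. The shares of all probe sets were 1.44% and 1.16%. The medians of the list were 1.31 and 0.09. AT1G72940 lies on chromosome 1 in a row of such genes, and its nearest measured neighbours on both sides, AT1G72920 (left out by name) and AT1G72950, were 3.29 and 0.96 higher in RB and 0.08 and -0.21 in H2O2. AT1G72900 and AT1G72890 of the same row were 0.48 and 0.35 in RB, so the row did not move as 1 block. Probes of such near relatives can share signal, which was not tested.

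VQ motif proteins, small partners of WRKY factors, gave SIB2 with 5.44, 5.61 and 5.41 in RB, 3.83, 3.55 and 3.60 in H2O2 and 4.29, 3.54 and 3.60 in control arrays, and PDE337, which was 1.13 higher in RB and 0.18 in H2O2. SIB1, the closest relative of SIB2, was high in both treatments, at 2.66 in RB and 2.01 in H2O2. All 6 measured VQ genes were at or over 1 in RB, and 2 were in H2O2, but 4 of the 6 have a name only because the study lists them as changed.

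Hormone, growth and membrane genes were of moderate size. NCED3, which catalyses the committed step of abscisic acid synthesis, had 4.54, 5.62 and 4.74 in RB, 3.74, 3.88 and 3.70 in H2O2 and 3.36, 3.98 and 3.65 in control arrays, and its second RB array was highest. ADC2, arginine decarboxylase of polyamine synthesis, had 7.05, 7.80 and 7.37 in RB, 6.39, 6.88 and 6.65 in H2O2 and 5.98, 6.88 and 5.66 in control arrays. ARL and the small auxin-induced gene AT1G56150 were 1.28 and 1.49 higher in RB. Of 5 measured jasmonate signalling genes ORA47, at 1.39 in RB and 0.00 in H2O2, met the limits and was left out as a tabulated marker, and MYC2, the central factor of that pathway, stood at 2.21 in RB and 1.02 in H2O2. The flotillin-like gene AT5G64870 of the plasma membrane had 10.32, 9.48 and 9.94 in RB, 8.68, 7.76 and 8.57 in H2O2 and 8.23, 7.34 and 8.15 in control arrays. The Rab GTPase RABA4C was 1.79 higher, the remorin-type gene AT3G57540 1.10 and the acyltransferase LPAT4 1.05. BCS1 (AT3G50930), an AAA ATPase of the mitochondrial outer membrane, had 10.95, 9.88 and 10.19 in RB, 9.02, 7.97 and 8.94 in H2O2 and 9.37, 6.71 and 8.57 in control arrays, a control range of 2.66 that was the widest of all members. Without the second control array its RB difference was 1.37 in place of 2.12. A/N-InvC, a neutral invertase, was 1.15 higher in RB and 0.49 in H2O2, and GATL10 of cell wall synthesis was 1.27 and 0.06.

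The lowest H2O2 differences belonged to 3 members of moderate RB difference. AT1G12320 had 7.57, 7.62 and 6.56 in RB, 5.74, 5.09 and 4.81 in H2O2 and 6.29, 5.87 and 5.99 in control arrays, and it was the only member with every H2O2 array below every control array. AT5G44350 differed by 1.71 in RB and -0.47 in H2O2, and AT4G05070 by 1.76 and -0.36. The widest RB ranges after HSFA2 were those of AT4G11170 and AT5G22530, at 2.19 and 2.01, and in both the first RB array was far above the other two.

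**Figure D3:**
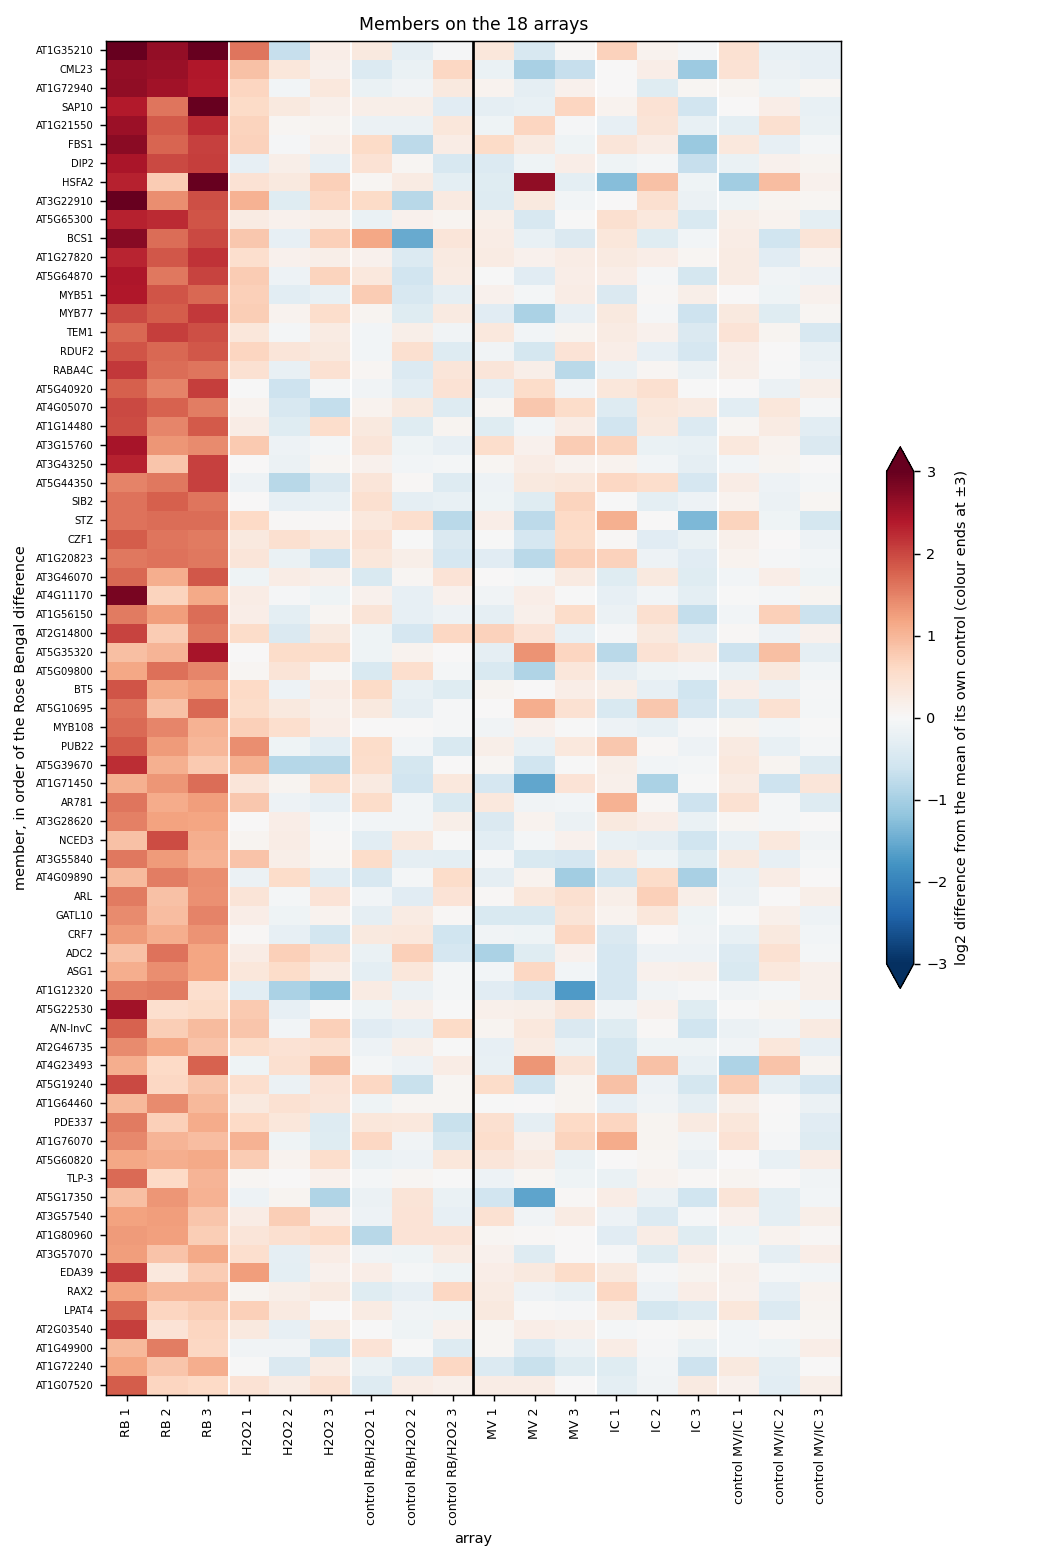
Each row is a member, in order of its RB difference, and each column is 1 of the 18 arrays, coloured by the log2 difference from the mean of that array's own control group. The RB columns are all above 0 (lowest 0.32), and the first H2O2 column is above the control mean for 62 of 72 members, against 35 in H2O2 2 and 51 in H2O2 3.

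The arrays of a number shared some of this spread. The first RB array was the highest of its group for 45 of 72 members, the first H2O2 array for 48 and the first control array for 31. Within array numbers, where the choice of members already sets every RB array above its control, 38 members were at least 1 higher in all 3 pairs. The median differences were 1.62, 1.32 and 1.54 in RB and 0.38, 0.06 and 0.15 in H2O2. In H2O2, 25 members were above the control of their number in all 3 pairs, 3 were below it in all 3 and 44 were mixed. These counts were not set beside all probe sets and only describe the members. Between the treatments, 64 members had every H2O2 array below every RB array. The exceptions were PUB22, AT5G39670, AT5G22530, A/N-InvC, AT4G23493, AT1G76070, EDA39 and LPAT4. The choice of members by their RB and H2O2 means largely fixes this count, and no share of all probe sets was taken for it.

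MV and IC asked whether other sensitizer dyes at the same dose gave the same transcripts. None of the 72 members was called in MV or in IC against their own control, or between MV and IC, at an adjusted p under 0.05 (limma over all 18 arrays, adjusted by Benjamini and Hochberg over 22746 probe sets). Of all probe sets, 0% were called in MV, 0% in IC and 0% between them. At an unadjusted p under 0.05 there was 1 member in MV, against 3.33% of all probe sets, 0 members in IC, against 1.64%, and 0 members between MV and IC, against 1.97%. With the replicate number as a block these counts became 10 members (13.9%) in MV, against 5.59% of all probe sets, 1 member (1.39%) in IC, against 2.22%, and 5 members (6.94%) between MV and IC, against 3.9%, still with none called after adjustment. The median member differed from the control by 0.02 in MV and by -0.08 in IC, with medians over all probe sets of 0.01 and 0.00. The members ranged from -0.85 to 0.67 in MV and from -0.36 to 0.36 in IC. MV minus IC had a median of 0.11 and 43 of 72 members above 0.

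The 95% intervals say how large a difference these arrays could have hidden. The interval ended below 1 for 59 members in MV and for 63 in IC, against 95.6% and 97.1% of all probe sets. For AT1G35210 the MV difference was -0.04 (-1.05 to 0.98) and the IC difference was 0.25 (-0.77 to 1.26). For AT1G72940, with tighter arrays, they were -0.01 (-0.41 to 0.40) and -0.09 (-0.50 to 0.31). CML23 lay below its control in both, at -0.62 (-1.34 to 0.10) in MV and -0.30 (-1.02 to 0.42) in IC, with intervals that include 0. The doses of the dyes were equal, but RB belongs to another set of arrays with its own control, so RB was not tested against MV or IC here. Equal doses also do not mean equal singlet oxygen. The study cites lower singlet oxygen yields for MV and IC than for RB, and describes both dyes as not entering chloroplasts. These differences between the dyes were not tested here.

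**Figure D4:**
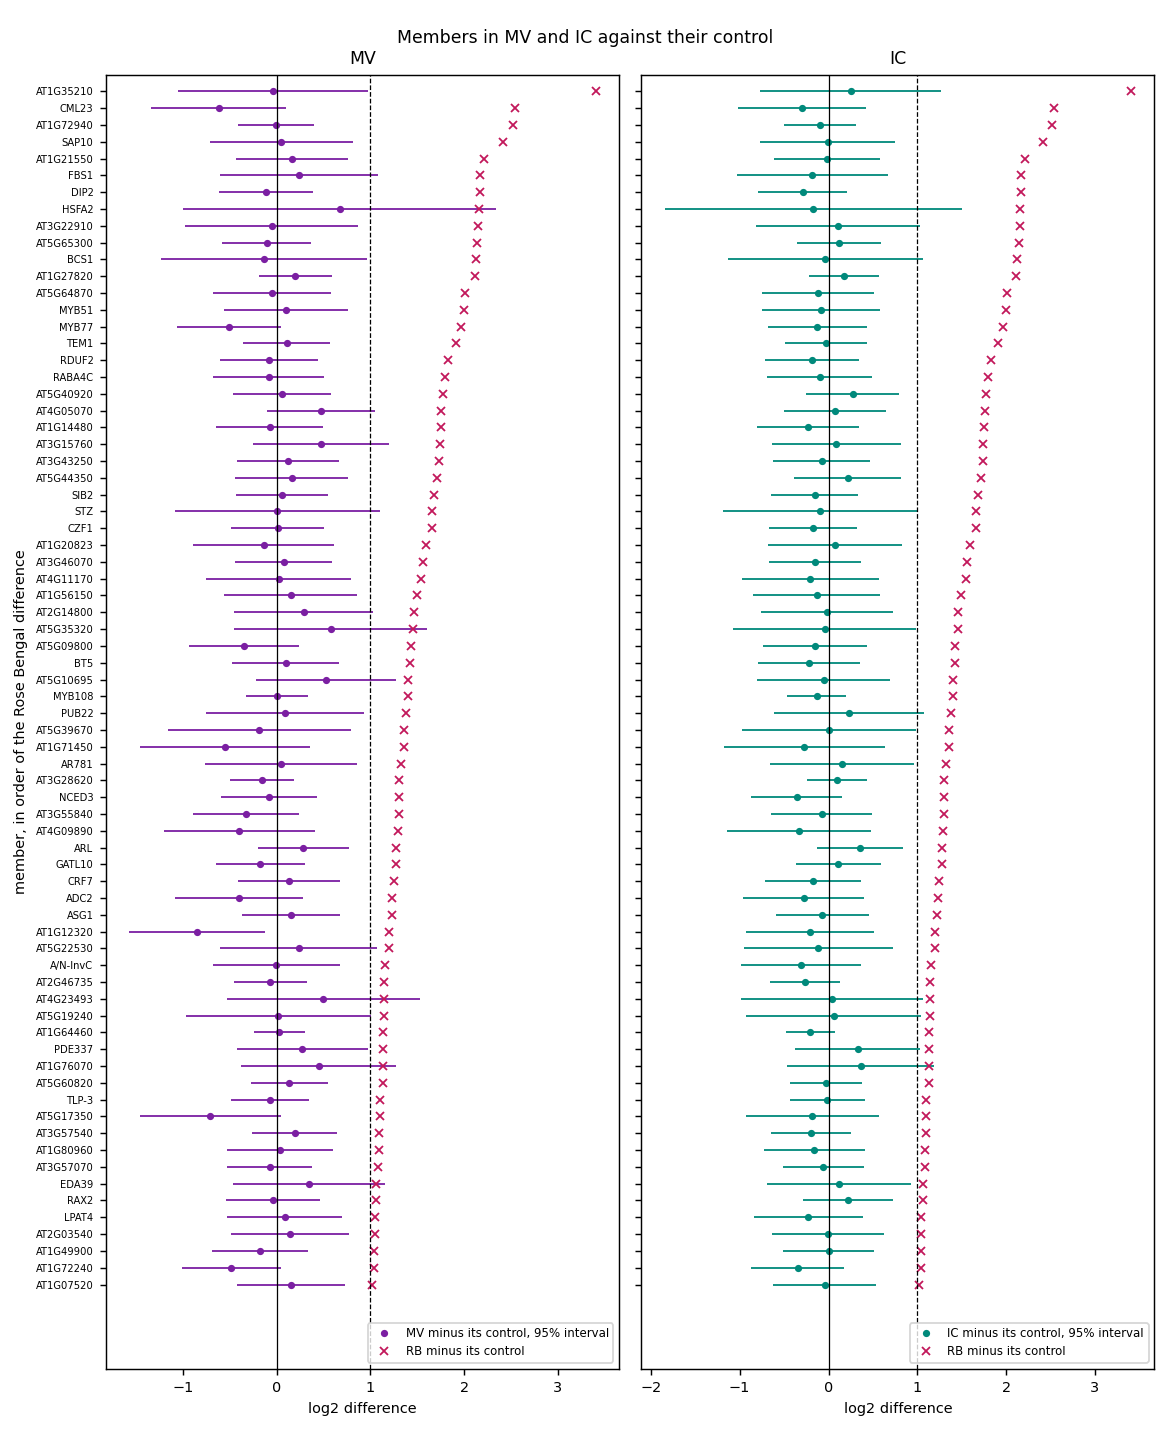
Log2 difference of each of the 72 members from the MV/IC control in MV (left) and IC (right), with the limma 95% interval as a line, and the RB difference from its own control as a cross. Of the intervals, 59 in MV and 63 in IC end below the dashed line at 1.

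The smallest p-values among the members were those of AT1G12320 in MV and AT1G64460 in IC. AT1G12320 had 5.54, 5.36 and 4.19 in MV, 5.38, 5.77 and 5.85 in IC and 5.77, 5.83 and 6.04 in control arrays. It was -0.85 in MV, with an interval from -1.57 to -0.13 and an adjusted p of 0.9997 (limma), so the difference did not pass the adjustment, and the third MV array was lowest. AT5G17350 was -0.71 in MV (-1.46 to 0.04) and AT1G72240 was -0.48 (-1.01 to 0.04), both at an adjusted p of 0.9997 (limma). In IC, AT1G64460 was -0.21 (-0.48 to 0.07), the growth gene ARL 0.35 (-0.13 to 0.84) and NCED3 -0.36 (-0.87 to 0.16). Between MV and IC the smallest were AT1G12320 at -0.64 (-1.36 to 0.08), AT3G57540 at 0.39 (-0.07 to 0.84) and AT1G64460 at 0.23 (-0.04 to 0.51).

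The untreated cells of the MV and IC set give a view of how far the members vary without treatment. There the members differed from the control for RB and H2O2 by -1.46 to 2.35, with a median of -0.03, the same as over all probe sets. Set and culture cannot be told apart in this comparison. The RB mean was at least 1 above this other control for 57 members and under 1 for 15, and for ADC2 and AT4G23493 it was below it, at -0.09 and -1.21. The same RB arrays chose the members for high values, which partly fixes these counts, and no share of all probe sets was taken. AT4G23493, a gene of unknown function that is named because of these values, had 6.48, 5.99 and 7.16 in RB, 5.34, 5.24 and 5.61 in its own control and 6.82, 8.60 and 7.83 in the MV/IC control, where every array exceeded the RB mean. HSFA2 had 4.17, 7.18 and 4.23 in MV, 3.24, 5.40 and 4.40 in IC and 3.47, 5.45 and 4.65 in their control, so its untreated arrays there overlapped the RB arrays. ADC2 had 7.05, 7.80 and 7.37 in RB, against 7.10, 7.95 and 7.45 in that control. In the other direction AT1G76070, PUB22 and AR781 differed by -1.46, -1.40 and -1.11 in the MV/IC control, and their RB mean stood 2.59, 2.77 and 2.43 above it.

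**Figure D5:**
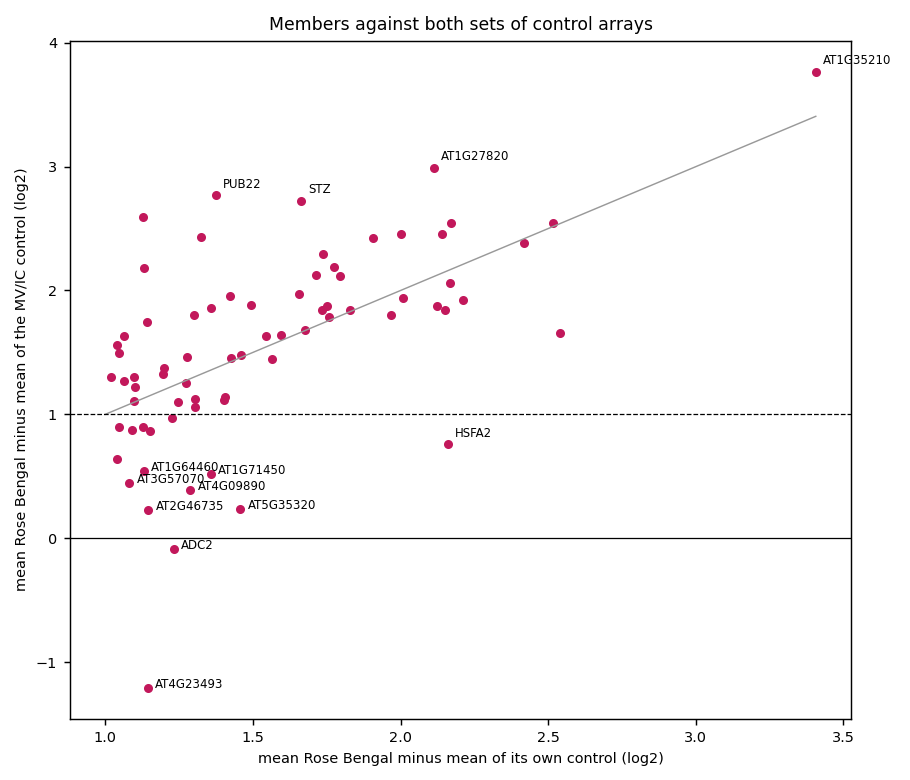
Mean of the RB arrays minus the mean of their own control (x axis) and minus the mean of the MV/IC control (y axis), both log2, with 1 point per member. The grey line marks equal differences and the dashed line marks 1, below which 15 of 72 members lie, with AT4G23493 lowest at -1.21.

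On the second arrays of MV, IC and their control, 9 members had the highest value of each group, among them HSFA2, AT5G35320, AT4G23493 and AT5G10695. The members as a whole did not follow this. Their second array was the highest of its group for 18 in MV, 29 in IC and 23 in the control. It was the lowest for 32, 13 and 26. No share of all probe sets was taken for these counts. The 24 heat shock proteins had median levels of 9.77, 9.43 and 9.58 on these second arrays, against 9.07, 8.73 and 9.38 on the third arrays and 7.76, 7.22 and 7.44 on the first, and of 5.38 to 6.21 in the control for RB and H2O2. Their part in the differences of the 9 members was not tested. The lowest RB array exceeded all 15 other arrays for 57 of the 72 members, against 1.41% of all probe sets, which the choice of members largely fixes. An MV array reached the lowest RB array in 9 members, an IC array in 6 and an array of their untreated control in 7. The choice of members for high RB arrays partly fixes these counts as well, and no share of all probe sets was taken for them.

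Gene length and position had no part in the choice. The annotated genes of the members ran from 513 to 6237 bp, with a median of 1626.5 bp, against 2132 bp for the named nuclear genes, and 53 of 72 (73.6%) were shorter than 2000 bp, against 45.1%. They lay on all 5 chromosomes, with 24 on chromosome 1 (33.3%, against 25.8% of named genes), 10 on chromosome 2 (13.9%, against 16.4%), 15 on chromosome 3 (20.8%, against 20.6%), 8 on chromosome 4 (11.1%, against 14.7%) and 15 on chromosome 5 (20.8%, against 22.6%). Adjacent members were MYB108 with A/N-InvC on chromosome 3, at 1.40 and 1.15 in RB, and LPAT4 with the thaumatin-like TLP-3 on chromosome 1, at 1.05 and 1.10. Among the measured neighbours within 2 coding genes of a member, those that are no members had a median RB difference of 0.04. Of 141 neighbour entries 8 were at or over 1, against 1.44% of all probe sets. These 8 include the adjacent pairs of members, each counted from both sides, which the choice of members sets at or over 1. The others were AT1G72920, AT3G50940, PROPEP2 and PAD4. AT5G40920 and AT2G03540 are annotated as pseudogenes and the other 70 as protein coding.

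Naming limits what these lists can show. Of the members, 43 were named by the platform's annotation and 29 only through loci that the study lists because they passed its own test on the RB or H2O2 arrays, so families named that way hold mostly genes that changed. The MYB, heat shock factor, RAV, calcium-dependent kinase and calcium ATPase genes measured were all of this kind, as were 5 of 9 C2H2 and 4 of 6 VQ genes, whereas 14 of the 16 calmodulin-like genes and 7 of the 8 TIR genes were named by the platform, with 7 and 4 of them at or over 1 in RB. In addition, 3 probe sets met the limits but have no single locus here and are not named.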

How the data were processed

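ACSC total RNA from 6 groups of 3 arrays was hybridised to Affymetrix ATH1 arrays. The deposited values are log2 signals that the authors made by RMA (background correction, quantile normalization and probe summary). Per the submitters' processing notes the tools were affy and RMA, with versions not given in the sources used here. No read depth applies to arrays, and their number limits the precision. After removal of 64 control probe sets, 22746 remained.

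Names came from the platform's annotation (13513 probe sets with 1 gene) and, for 858 more, from loci that the study lists, with current symbols and gene lengths taken from RefSeq (TAIR10.1). The probe set with the highest mean stood for a gene. No coordinates are given because no build is stated for the array. Promoters and sequences were not analysed here.

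Group differences are differences of log2 means. MV, IC and their control were tested with limma 3.58.1 in R 4.3.3 (lmFit and eBayes, 6 groups fitted together, 12 residual and 3.37 prior degrees of freedom), with Benjamini-Hochberg adjustment, after a test of the script on simulated data. The labels of the treated arrays call the replicates biological but do not say whether they came from separate cultures, so p-values measure the spread between these arrays. Summaries and figures used Python 3.11.15, pandas 2.3.3 and matplotlib 3.10.9.

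The members, the gene lists and the rule for naming genes were chosen with earlier results of these data known. Named are the 12 largest RB differences, the 3 genes on either side of each limit, at most 4 members per list, 3 members with the smallest p in every tested comparison, the 3 lowest H2O2 differences and the 3 widest and narrowest RB ranges. Other genes are named as members of a role group, as listed relatives or because of values seen. Alternatives were other scalings, names, probe sets, controls and priors, a replicate block and leaving out each array.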

Additional observations from a re-analysis of the deposited data

Results flagged for a closer look

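AT1G12320 moved in opposite directions in the 2 treatments that share a control. All 3 RB arrays lay above all control arrays, which the choice of members required, and all 3 H2O2 arrays lay below them, with a mean H2O2 difference of -0.835 (log2). The difference between the treatments was not tested, because the same values chose the member. Groups of 3 arrays are too small for a check of single outlying arrays.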

How the results depend on the processing

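The rule gave 63 to 87 members under the other scalings, probe set choices, controls and overlap criteria tried, against 72, and 65 to 101 when 1 array was left out, but not always the same genes. A second quantile normalization gave 81, of which 66 are among the 72, subtraction of array medians gave 74 with 58 of them, all 6 control arrays gave 63 with 49, and the MV/IC control gave 87 with 35. Leaving out 1 array kept 54 (without the third control array) to 70 (without the third RB array). Platform names alone gave 43. The RB difference of ADC2 became -0.0897 and that of AT4G23493 -1.21 against the MV/IC control. Another 29 of the 78 genes with a value for this moved by over 1 SD there, and none did under the other scalings. With 1 array left out, the RB difference stayed at or over 1 for 47 of the 72 members and was under 1 for 25 in at least 1 case. It moved by over 1.5 times for BCS1 (1.37 without the second control array) and AT1G80960 (0.674 without the first), for AT5G35320 (0.952 without the third RB array), and without the first RB array for AT4G11170 (0.892), AT5G22530 (0.535), AT5G19240 (0.726), EDA39 (0.546), LPAT4 (0.692), AT2G03540 (0.53) and AT1G07520 (0.621), and AT1G06210, which is just outside the limit, stood at 0.658 without the second control array. No member was called in MV, in IC or between them under any alternative run. The medians ranged from -0.00815 to 0.0808 in MV (below 0 without the second control array or the third MV array) and from -0.114 to 0.0152 in IC (above 0 only without the third IC array) when 1 array was left out. Control arrays are titled by the number of their treated arrays. Deviations from group means of same-numbered arrays correlated at 0.634, 0.182 and -0.333 between MV and control, 0.543, 0.523 and 0.216 between IC and control and 0.424, 0.584 and 0.158 between MV and IC. In the other set they were 0.204, 0.449 and 0.000948 between RB and control, 0.483, 0.571 and 0.636 between H2O2 and control and 0.417, 0.516 and 0.231 between RB and H2O2. All were over 0.1 except those of replicate 3 between MV and control and between RB and control. With the replicate number as a block, 0 members were called, the smallest adjusted p of a member in MV was 0.82 (limma), and 10, 1 and 5 members had an unadjusted p under 0.05 in MV, in IC and between them, against 1272, 504 and 888 probe sets in all. With each RB array set above the control of its number in place of no overlap, a looser criterion that must hold all 72, the rule gave 85 members.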
